A study of Homo sapiens with 52 samples.

Results

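SGC-CBP30, an inhibitor of the bromodomains of the acetyltransferases CREBBP (CBP) and EP300 (p300), was added to fusion-positive rhabdomyosarcoma (FP-RMS) cells for 6 h at 10 µM and at 1 µM, and the RNA was compared with that of 4 DMSO samples. The genes described are those at 1 or more TPM (the share of a gene among all transcripts of a library, set per gene length) in at least 2 of these 6 samples, 13869 of the 27043 genes measured. Of these, 12491 were at 1 TPM or more in all 6 samples, 342 in DMSO samples and neither treated sample, and 49 in both treated samples and no DMSO sample.

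CREBBP and EP300 are closely related coactivators that acetylate histones, above all H3K27 at active enhancers. Each carries a bromodomain, a pocket that binds acetylated lysine, and SGC-CBP30 occupies that pocket and leaves the acetyltransferase domain itself free. In FP-RMS, a childhood tumour of the skeletal muscle lineage, the chromosome translocation product PAX3-FOXO1 works with a small set of core regulatory transcription factors (CR TFs: MYOD1, MYOG, SOX8, MYCN, FOXF1 and PAX3 in the list used here) that bind enhancers of each other and of muscle genes together with p300.

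The samples belonged to a screen of 20 compounds in an FP-RMS line that carries PAX3-FOXO1, each compound at a high and a low dose for 6 h. The titles name the line RH41, whereas the cell line entry reads RH4. SGC-CBP30 was measured in 1 library at 10 µM and 1 at 1 µM, and the controls were 2 libraries with 0.2% DMSO and 2 with 0.1% DMSO. All cells came from 1 line, in DMEM with serum, and the drug was dissolved in DMSO. Library size, recovered from the steps in the TPM values, was 12740227 reads at 10 µM and 13345717 at 1 µM, against 16772069 to 22400976 in DMSO.

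Each column name of the data ends in a run code, which was read here as the flow cell. By this reading both SGC-CBP30 libraries were on C5JW5ACXX, which held 28 libraries of 14 compounds and 0 of DMSO. Replicate 1 of each DMSO concentration was on C4JM1ACXX and replicate 2 on H144EBGXX, so treatment and flow cell cannot be told apart against DMSO. A comparison within the flow cell was therefore made as well, with 7 compounds directed at histone methyltransferases or demethylases (EZ-005, LSD-519, LSD-690, PFI-2, SGC0946, UNC0638 and UNC1999) at the same dose as reference. These are treated cells and not untreated controls. UNC0638 stood apart from the others, being the lowest of the 7 for 46.4% of the genes at 10 µM, against at most 10.9% for any other compound.

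The 2 DMSO libraries of a concentration differed by no more than sampling noise once the flow cell was allowed for (interaction variance 1.02 times counting noise over 10378 genes) and were counted as 1 sample, giving n = 2. Without that allowance they differed by 2.57 times counting noise at 0.2% DMSO and 2.52 times at 0.1%. The flow cell difference was 4.08 times counting noise, and averaging the libraries leaves it out of the spread. With 1 library per dose, SGC-CBP30 had no replicate check of its own. The test (limma) took the spread mainly from the high and low dose of each other compound, counted as replicates. Effects of dose in those compounds are therefore part of that spread. A lone library was assumed to vary by as much. The standard errors, intervals and p-values rest on that assumption and on samples not stated to be separate cultures. Muscle tumour markers were high in all 6 samples, with DES at 188 to 443 TPM. The summed level of the 14 markers of other cells was 2131 to 2172 TPM in DMSO, 2188 TPM at 1 µM and 2067 TPM at 10 µM, nearly all of it COL3A1, with KRT19 and PTPRC the markers at 0 throughout. Of its 5 measured members COL1A1 was higher at 10 µM than in any DMSO sample (155 against 89.7 to 102 TPM), COL3A1 (1906 against 2030.2 to 2067 TPM), COL1A2 (0.98 against 1.80 to 2.78 TPM) and DCN (0.729 against 2.02 to 2.36 TPM) were lower and CD68 lay within. Their part in the results was not tested. Such bulk values cannot tell fewer expressing cells from less RNA per cell.

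At 10 µM the change ran mainly downwards. A gene was called when its Benjamini-Hochberg adjusted p over all 13869 genes was under 0.05 and its difference in log2(TPM + 1) was at least 1. By this rule 663 genes fell (4.78% of those tested) and 170 rose (1.23%). Without the fold threshold 1199 were lower and 804 higher. The median difference over all genes was 0.05 at 10 µM and 0.04 at 1 µM. The genes that fell had a median of 22.9 TPM in DMSO, close to the 24.3 TPM of all genes, and those that rose had a median of 7.02 TPM.

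Against the 7 methylation compounds of the same flow cell, 545 genes were called lower (3.93%) and 160 higher (1.15%) at 10 µM. Of the 663 genes that fell against DMSO, 454 were also called lower within the flow cell, and of the 170 that rose, 94 were also called higher. None was called in the opposite direction. Both comparisons use the same treated library, so this overlap is not an independent repeat of it. The 10 µM value was below all 7 methylation compounds for 604 of the 663 genes, against 17.1% of all genes, and above all 7 for 152 of the 170, against 22.4% of all genes. Without UNC0638 the within-flow-cell counts were 673 lower and 201 higher.

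**Figure D1:**
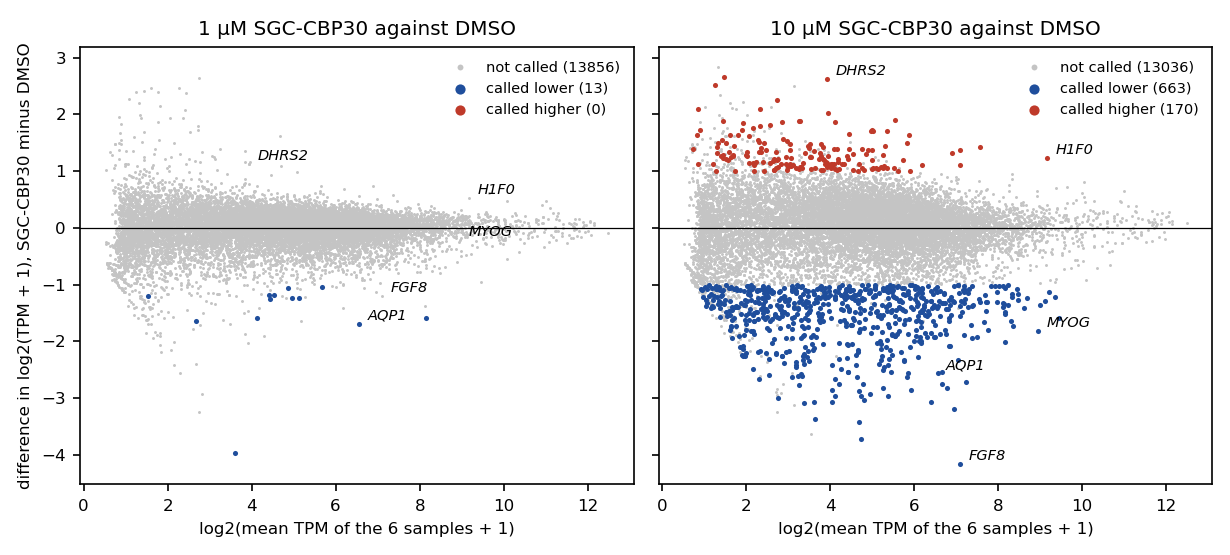
Difference in log2(TPM + 1) between SGC-CBP30 and DMSO for each of the 13869 genes (vertical axis) against the log2 of their mean TPM over the 6 samples plus 1 (horizontal axis), at 1 µM (left) and 10 µM (right). Blue and red points are genes called lower and higher: 13 and 0 at 1 µM, 663 and 170 at 10 µM. FGF8 lies lowest of the labelled genes at 10 µM.

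The gene with the largest fall at 10 µM, by the rule for named genes, was FGF8, a fibroblast growth factor ligand of embryonic patterning (chr10:103529887-103540126, hg19, minus strand, protein-coding). FGF8 was at 168 and 168 TPM in the 0.2% DMSO samples, 192 and 203 TPM in the 0.1% DMSO samples, 78.3 TPM at 1 µM and 9.21 TPM at 10 µM. Every treated value lay below every DMSO value, and the 10 µM value, from 45 reads, was also below the 126 to 220.3 TPM of the methylation compounds. The difference from DMSO at 10 µM was -4.17 ± 0.48 (adjusted p = 2.76e-06), and within the flow cell it was -3.88.

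SSTR5, a receptor for somatostatin (chr16:1122756-1131454), was at 30.5 and 31.0 TPM in the 0.2% DMSO samples, 34.2 and 37.7 TPM in the 0.1% DMSO samples, 18.0 TPM at 1 µM and 1.59 TPM at 10 µM. The difference at 10 µM was -3.73 ± 0.48 (adjusted p = 9.84e-06). RXRG, the retinoid X receptor of the gamma type that pairs with retinoic acid and other nuclear receptors (chr1:165370159-165414592), was at 165 and 164 TPM in the 0.2% DMSO samples, 154 and 163 TPM in the 0.1% DMSO samples, 73.3 TPM at 1 µM and 16.8 TPM at 10 µM. Its difference at 10 µM was -3.19 ± 0.40 (adjusted p = 7.23e-06). In both genes the 1 µM value stood between the DMSO values and the 10 µM value, with no overlap.

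MEOX1, a homeobox factor of the somites from which skeletal muscle arises, was at 34.4 and 32.1 TPM in the 0.2% DMSO samples, 39.3 and 38.2 TPM in the 0.1% DMSO samples, 14.6 TPM at 1 µM and 3.48 TPM at 10 µM. Its difference at 10 µM was -3.04 ± 0.41 (adjusted p = 1.68e-05). Among the remaining genes of this group, SEZ6 (a neuronal membrane protein) fell to 2.06 TPM from 29.2 to 35.4 TPM in DMSO, KCNC2 (a voltage-gated potassium channel) to 0.837 from 14.1 to 14.8, and ANK1 (the ankyrin that ties membrane proteins to the spectrin skeleton) to 3.48 from 33.0 to 36.0. TMCO4 fell to 11.8 TPM from 95.9 to 113 TPM, a difference of -3.07 ± 0.31 (adjusted p = 5.6e-07). IL1RAPL2, of the interleukin-1 receptor family, fell to 1.35 from 17.3 to 20.2 TPM. CASS4 (a Cas family scaffold), AFAP1L2 (an actin-associated adaptor) and the antisense transcript LMF1-AS1 ended at 8, 11 and 1 reads at 10 µM, from at least 269, 335 and 67 reads in each DMSO library. All 12 genes were called lower within the flow cell as well, and all 12 lay below the 7 methylation compounds.

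The rises at 10 µM were smaller. DHRS2, a short-chain dehydrogenase/reductase (chr14:24099324-24114848), was at 6.77 and 7.45 TPM in the 0.2% DMSO samples, 5.90 and 5.76 TPM in the 0.1% DMSO samples, 15.1 TPM at 1 µM and 44.6 TPM at 10 µM, and its difference at 10 µM was 2.62 ± 0.61 (adjusted p = 0.00512). MXD1, a MAX partner that opposes MYC, rose to 17.1 TPM from 2.33 to 3.39 in DMSO, and RGS2, a regulator of G-protein signalling, to 39.1 from 7.62 to 9.57. LEPR, the leptin receptor, rose to 16.0 TPM from 3.37 to 4.25, with a difference of 1.86 ± 0.23 (adjusted p = 5.31e-06). INA (alpha-internexin, a neuronal intermediate filament) reached 21.6 TPM from 4.62 to 5.71, and SLC9A3R1 (the scaffold NHERF1) 72.2 from 20.1 to 22.7. PNPLA2, the lipase that starts the breakdown of stored triglyceride, reached 122 TPM from 41.6 to 43.5 TPM. SMIM14, WDR47, YPEL1, HEXIM1 and LOC100507639 complete this group, with differences of 1.53 to 1.88. Within the flow cell MXD1 (1.62, adjusted p = 0.145), SLC9A3R1 (1.72, adjusted p = 0.0694) and YPEL1 (1.25, adjusted p = 0.0891) lost the call, and MXD1 at 10 µM lay inside the 2.49 to 19.1 TPM of the methylation compounds. Without UNC0638 all 3 were called (MXD1 1.91, SLC9A3R1 1.55 and YPEL1 1.11), and MXD1 lay above the other 6 compounds.

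**Figure D2:**
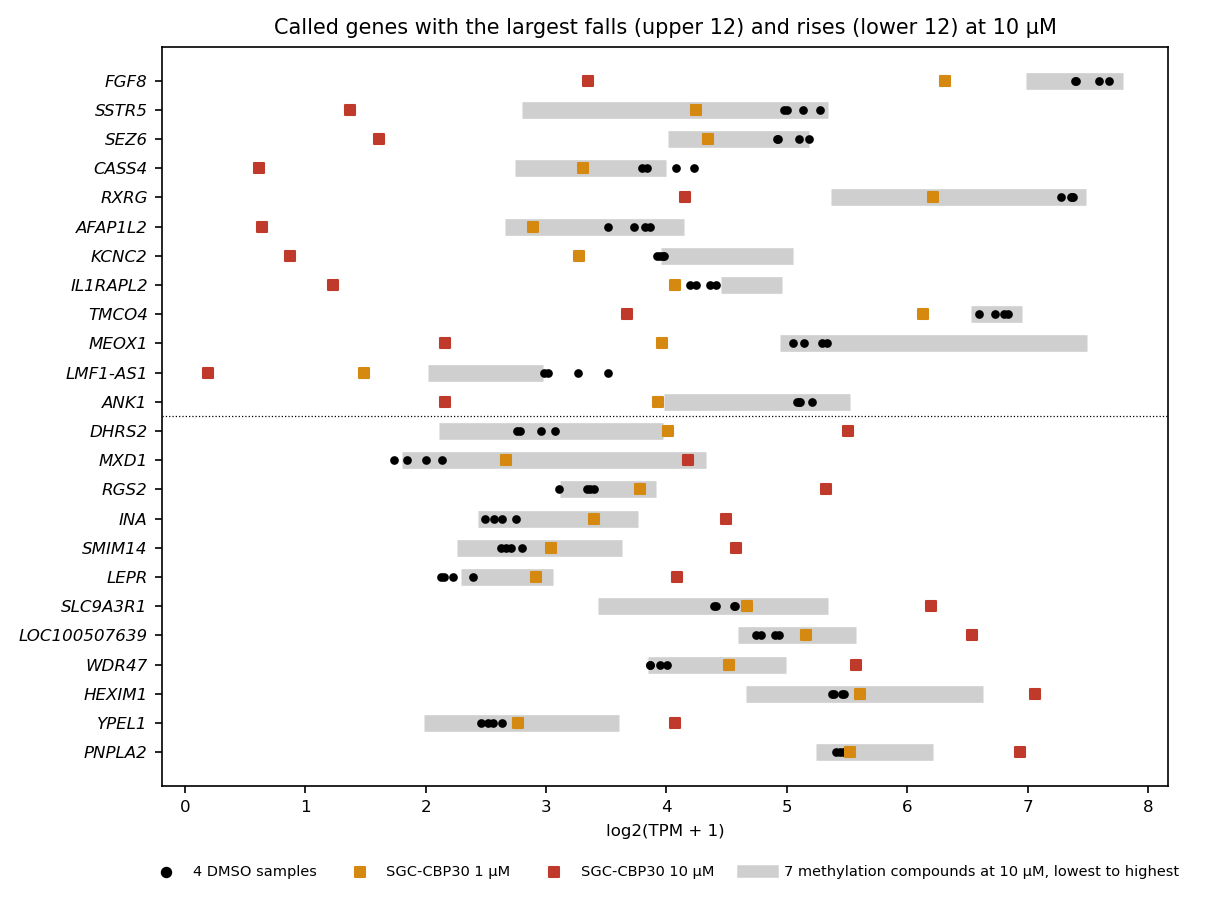
Level, as log2(TPM + 1), of the 12 called genes with the largest fall and the 12 with the largest rise at 10 µM (mean TPM of 5 or more over the 6 samples, same sign at 1 µM). Black points are the 4 DMSO samples, orange and red squares SGC-CBP30 at 1 µM and 10 µM, and grey bars span the 7 methylation compounds at 10 µM. The red square lies outside the grey bar for all 24 genes but MXD1.

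The study asks whether the CR TFs respond to such compounds. At 10 µM 4 of the 6 fell and 0 rose, beside 4.78% and 1.23% of all genes. Within the flow cell 2 of the 6 were called lower, beside 3.93% of all genes. These members were chosen with earlier results of these data known, so the count is not independent evidence. MYOG, the factor that drives muscle differentiation, was at 579 and 572 TPM in the 0.2% DMSO samples, 587 and 575 TPM in the 0.1% DMSO samples, 498 TPM at 1 µM and 163 TPM at 10 µM. MYCN, the MYC family member of these tumours, was at 53.3 and 53.4 TPM in the 0.2% DMSO samples, 56.2 and 57.5 TPM in the 0.1% DMSO samples, 38.2 TPM at 1 µM and 14.0 TPM at 10 µM. Both were below every methylation compound at 10 µM, whose values ran from 382 to 690.4 TPM for MYOG and from 48.1 to 66.6 TPM for MYCN. The differences from DMSO were -1.82 ± 0.37 (adjusted p = 0.00156) for MYOG and -1.90 ± 0.31 (adjusted p = 0.00019) for MYCN, and both stayed called within the flow cell (-1.72 and -1.89).

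MYOD1, the master regulator of the muscle lineage, was at 647 and 641 TPM in the 0.2% DMSO samples, 639.7 and 648 TPM in the 0.1% DMSO samples, 459 TPM at 1 µM and 263 TPM at 10 µM. SOX8, a SOX family factor expressed in these tumours, was at 664 and 701 TPM in the 0.2% DMSO samples, 680.4 and 707 TPM in the 0.1% DMSO samples, 499 TPM at 1 µM and 313 TPM at 10 µM. Both treated values lay below all DMSO values in each gene. The differences at 10 µM were -1.29 ± 0.37 (adjusted p = 0.0215) for MYOD1 and -1.13 ± 0.17 (adjusted p = 6.48e-05) for SOX8. Neither was called against the methylation compounds, where the difference was -0.69 ± 0.36 (adjusted p = 0.296) for MYOD1 and -0.78 ± 0.26 (adjusted p = 0.079) for SOX8. MYOD1 was 221 to 592 TPM across those compounds, a range that includes its value under SGC-CBP30 through UNC0638 alone, and all 7 of them were below every DMSO sample. Without UNC0638 the differences were -0.84 for MYOD1 (adjusted p = 0.0198) and -0.85 for SOX8 (adjusted p = 0.0163), past the adjusted p and short of the fold. With the DMSO samples of 1 concentration alone MYOD1 missed the threshold at an unchanged difference (adjusted p = 0.07 with 0.1% and 0.0863 with 0.2%).

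FOXF1, a forkhead factor, was at 115 and 112 TPM in the 0.2% DMSO samples, 107 and 104 TPM in the 0.1% DMSO samples, 68.1 TPM at 1 µM and 56.3 TPM at 10 µM. PAX3 was at 38.6 and 39.4 TPM in the 0.2% DMSO samples, 43.1 and 43.9 TPM in the 0.1% DMSO samples, 33.1 TPM at 1 µM and 22.9 TPM at 10 µM. Both were lower at each dose than in any DMSO sample but were not called at 10 µM, with differences of -0.95 ± 0.57 (adjusted p = 0.293) and -0.82 ± 0.36 (adjusted p = 0.14). Against the methylation compounds FOXF1 passed the adjusted p but not the fold (-0.95 ± 0.27, adjusted p = 0.0428), and PAX3 passed neither (-0.79 ± 0.28, adjusted p = 0.114). A gene-level PAX3 value adds the intact gene to the PAX3-FOXO1 transcript. The CR TFs had a median difference of -1.21 at 10 µM, beside 0.05 for all genes, and of -0.47 at 1 µM, where none was called.

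**Figure D3:**
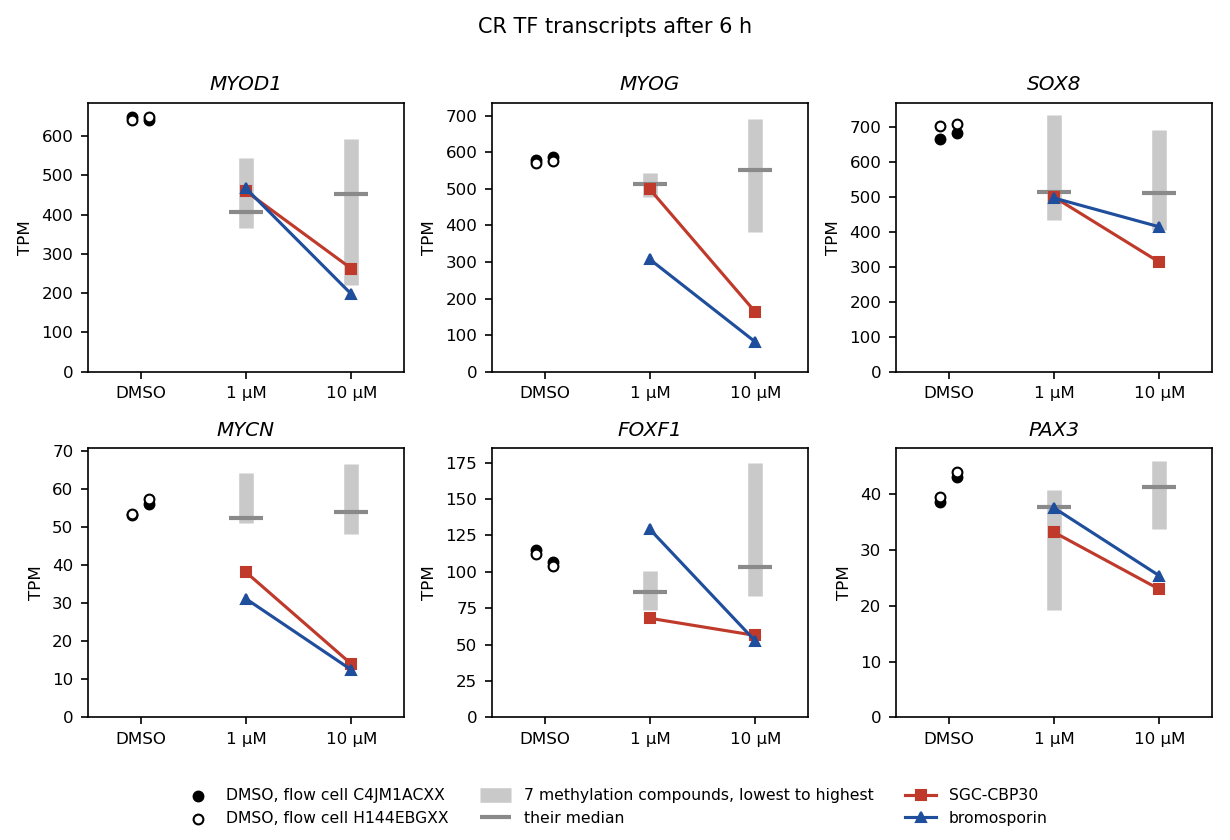
TPM (vertical axes, from 0) of the 6 CR TFs in DMSO, at 1 µM and at 10 µM. Circles are the DMSO samples (left of each pair 0.2%, right 0.1%; filled C4JM1ACXX, open H144EBGXX), red squares SGC-CBP30, blue triangles bromosporin, grey bars the range of the 7 methylation compounds and grey lines their median. At 10 µM the red squares lie below the grey bar for all of the 6 but MYOD1, whose grey bar reaches that low through UNC0638 alone.

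Genes of the PAX3-FOXO1 signature, known targets or markers of the fusion protein, were lower too. Of 16 measured members 8 fell and 0 rose at 10 µM, beside 4.78% and 1.23% of all genes, and the median difference was -1.02. PIPOX, a peroxisomal oxidase and marker of fusion-positive tumours, was at 121 and 119 TPM in the 0.2% DMSO samples, 131 and 127 TPM in the 0.1% DMSO samples, 86.4 TPM at 1 µM and 17.7 TPM at 10 µM. TFAP2B, an AP-2 transcription factor used to recognise these tumours, was at 46.7 and 48.0 TPM in the 0.2% DMSO samples, 50.1 and 51.2 TPM in the 0.1% DMSO samples, 39.5 TPM at 1 µM and 8.41 TPM at 10 µM. MET, the receptor tyrosine kinase for hepatocyte growth factor, was at 71.6 and 75.6 TPM in the 0.2% DMSO samples, 77.5 and 79.7 TPM in the 0.1% DMSO samples, 52.5 TPM at 1 µM and 18.3 TPM at 10 µM. The 3 genes were lower at 1 µM than in any DMSO sample and lower again at 10 µM, with differences at 10 µM of -2.75 ± 0.32 (adjusted p = 2.75e-06), -2.41 ± 0.56 (adjusted p = 0.00526) and -1.99 ± 0.22 (adjusted p = 1.76e-06). BMP5 (a bone morphogenetic protein), KCNN3 (a calcium-activated potassium channel), NOS1 (neuronal nitric oxide synthase) and DAPK1 (a death-associated kinase) fell as well, with differences of -2.10, -1.27, -1.09 and -1.08. ALK, the receptor tyrosine kinase with a fusion-bound enhancer, was at 36.4 and 38.2 TPM in the 0.2% DMSO samples, 37.7 and 36.7 TPM in the 0.1% DMSO samples, 24.0 TPM at 1 µM and 15.4 TPM at 10 µM, a difference of -1.22 ± 0.17 (adjusted p = 2e-05), and within the flow cell its -0.98 was just under the fold threshold (-1.05 without UNC0638). FGFR4, the most abundant member, was at 904 and 906 TPM in the 0.2% DMSO samples, 971 and 981 TPM in the 0.1% DMSO samples, 756 TPM at 1 µM and 576 TPM at 10 µM. Its difference of -0.71 ± 0.16 (adjusted p = 0.00457) passed the adjusted p but not the fold, and within the flow cell it was -0.31 ± 0.25 (adjusted p = 0.541). The list was drawn up with earlier results of this screen known, so its count is no independent evidence of direction. Within the flow cell 8 members were called lower, 7 of those named as falls above and JARID2, a partner of the Polycomb complex (-1.0 ± 0.23, adjusted p = 0.0115).

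Among 15 other myogenic regulators 4 fell and 0 rose at 10 µM, beside 4.78% and 1.23% of all genes. MEF2C, a MADS-box partner of the MyoD family, was at 49.0 and 50.6 TPM in the 0.2% DMSO samples, 53.2 and 55.9 TPM in the 0.1% DMSO samples, 29.9 TPM at 1 µM and 9.68 TPM at 10 µM, and PITX3, a homeobox factor, was at 166 and 169.8 TPM in the 0.2% DMSO samples, 162 and 173 TPM in the 0.1% DMSO samples, 84.8 TPM at 1 µM and 32.7 TPM at 10 µM. The differences were -2.31 ± 0.29 (adjusted p = 7.97e-06) and -2.32 ± 0.30 (adjusted p = 9.84e-06). EYA1, a coactivator of homeobox factors, fell to 13.5 TPM from 51.1 to 52.5 TPM, and TCF12, an E protein that pairs with MYOD1 and MYOG, to 135 from 335 to 365 TPM. All 4 kept the call within the flow cell. ID3, the most abundant of the inhibitors of E proteins, was at 500.4 to 552 TPM in DMSO and 448 TPM at 10 µM (-0.23 ± 0.27, adjusted p = 0.629).

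Of 21 measured genes of muscle differentiation 13 fell and 0 rose at 10 µM, beside 4.78% and 1.23% of all genes. The median difference was -1.16, and none was called at 1 µM. The falls included subunits of the muscle acetylcholine receptor, which answers the motor nerve. CHRNA1 was at 723 and 731 TPM in the 0.2% DMSO samples, 746 and 749 TPM in the 0.1% DMSO samples, 624 TPM at 1 µM and 316 TPM at 10 µM, a difference at 10 µM of -1.22 ± 0.15 (adjusted p = 4.26e-06). CHRND was at 99.1 and 93.7 TPM in the 0.2% DMSO samples, 109 and 108 TPM in the 0.1% DMSO samples, 73.3 TPM at 1 µM and 38.0 TPM at 10 µM, a difference of -1.40 ± 0.19 (adjusted p = 1.89e-05). The embryonic subunit CHRNG fell to 4.27 TPM from 14.6 to 16.5, and MUSK, the kinase that gathers the receptor at the synapse, to 5.39 from 14.1 to 16.7. TMEM8C (myomaker, needed for myoblast fusion) showed the largest change of this list and was at 38.9 and 47.1 TPM in the 0.2% DMSO samples, 55.1 and 47.2 TPM in the 0.1% DMSO samples, 14.2 TPM at 1 µM and 8.03 TPM at 10 µM. DES, the muscle intermediate filament, was at 413 and 414 TPM in the 0.2% DMSO samples, 443 and 425 TPM in the 0.1% DMSO samples, 243 TPM at 1 µM and 188 TPM at 10 µM, and ACTC1, the cardiac alpha-actin of embryonic muscle, was at 596 and 599.7 TPM in the 0.2% DMSO samples, 589 and 585 TPM in the 0.1% DMSO samples, 446 TPM at 1 µM and 230.4 TPM at 10 µM. TNNT2, TNNI2, TTN, MYH8, MYBPH and ACTA1, all of the sarcomere, make up the remaining falls, with differences from -1.80 to -1.01, and ACTA1 rests on 1 read at 10 µM. Within the flow cell 6 of the 13 were called (CHRNA1, CHRNG, MUSK, TMEM8C, TTN and MYH8). DES (-0.98), TNNT2 (-0.99) and ACTC1 (-0.95) missed the fold there. CHRND (-1.39, adjusted p = 0.0508), TNNI2 (-0.64, 0.402), MYBPH (-1.41, 0.181) and ACTA1 (-0.91, 0.174) missed the adjusted p. Without UNC0638 CHRND (-1.47), ACTC1 (-1.02) and TNNT2 (-1.05) were called.

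MYOD1, MYOG and their E protein partners bind the E-box, CANNTG, and the MyoD family favours the form CAGCTG. Promoter letters, from RefSeq and found once each by exact match in hg19, are shown for MYOG and for the 2 receptor subunit genes with the highest levels among those that fell, 250 bases before to 50 after the start, with each CANNTG in capitals.
MYOG (chr1:203055091-203055390, minus strand): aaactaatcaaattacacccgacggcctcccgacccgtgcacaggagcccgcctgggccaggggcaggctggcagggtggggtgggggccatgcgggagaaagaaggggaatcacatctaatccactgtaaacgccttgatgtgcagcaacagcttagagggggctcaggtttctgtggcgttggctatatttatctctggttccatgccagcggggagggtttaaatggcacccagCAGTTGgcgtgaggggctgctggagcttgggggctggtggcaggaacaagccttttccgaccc
CHRNA1 (chr2:175629151-175629450, minus strand): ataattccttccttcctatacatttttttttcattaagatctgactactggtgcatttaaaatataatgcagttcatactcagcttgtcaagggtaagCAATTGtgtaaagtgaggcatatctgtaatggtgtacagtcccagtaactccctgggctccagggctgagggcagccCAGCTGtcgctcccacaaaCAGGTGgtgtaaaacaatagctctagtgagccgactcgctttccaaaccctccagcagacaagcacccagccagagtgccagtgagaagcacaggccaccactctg
CHRND (chr2:233390620-233390919, plus strand): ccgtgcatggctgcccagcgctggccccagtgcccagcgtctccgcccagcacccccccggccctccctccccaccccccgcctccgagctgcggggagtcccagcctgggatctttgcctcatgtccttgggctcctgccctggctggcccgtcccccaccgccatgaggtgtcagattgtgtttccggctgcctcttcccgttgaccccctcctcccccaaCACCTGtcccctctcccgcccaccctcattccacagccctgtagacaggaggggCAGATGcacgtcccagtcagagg
The letters were chosen to show where such motifs lie in genes that fell. The MYOG window holds 1 such match, the CHRND window 2 and the CHRNA1 window 3, of which 1 is CAGCTG. Both motifs read the same on either strand, and every CAGCTG is also counted as a CANNTG. The wider motif occurred in 68.9% of all 27305 promoters in the table, in 59.6% of the 9945 genes of this comparison with a promoter there, in 68.1% of 470 that fell at 10 µM and in 66.1% of 115 that rose. CAGCTG occurred in 17.7%, 17.3%, 25.3% and 19.1% of the same groups. A match describes the letters of the window and not a bound site.

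Beside the fall of FGF8, 4 of 14 genes that report signalling from growth factor receptors through ERK fell and 0 rose at 10 µM. Of all genes 4.78% fell and 1.23% rose. CCND1, the G1 cyclin D1, was at 44.9 and 43.1 TPM in the 0.2% DMSO samples, 52.3 and 53.4 TPM in the 0.1% DMSO samples, 25.5 TPM at 1 µM and 5.93 TPM at 10 µM, a difference at 10 µM of -2.83 ± 0.44 (adjusted p = 0.000101). SPRY4, a Sprouty inhibitor of receptor signalling, was at 20.5 and 20.1 TPM in the 0.2% DMSO samples, 27.3 and 24.7 TPM in the 0.1% DMSO samples, 13.5 TPM at 1 µM and 3.27 TPM at 10 µM, a difference of -2.49 ± 0.58 (adjusted p = 0.00518). DUSP6, the phosphatase that switches ERK off, was at 37.4 and 39.0 TPM in the 0.2% DMSO samples, 46.8 and 49.8 TPM in the 0.1% DMSO samples, 29.5 TPM at 1 µM and 9.99 TPM at 10 µM, a difference of -2.0 ± 0.63 (adjusted p = 0.0332). SPRY1 fell to 19.7 TPM from 59.5 to 66.9. All 14 members had a negative difference, with a median of -0.83. Within the flow cell 5 members were called, among them CCND1, SPRY4 and SPRY1, whereas DUSP6 was not (-2.17, adjusted p = 0.0867). Without UNC0638 DUSP6 was called (-1.83). The methylation compounds spread widely for DUSP6, from 26.9 to 205 TPM.

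Of 19 cell cycle genes, 3 fell and 0 rose at 10 µM, beside 4.78% and 1.23% of all genes. CDK6, a kinase of the G1 phase, fell to 118 TPM from 315 to 348 in DMSO (-1.48 ± 0.37, adjusted p = 0.00851). CCND2, cyclin D2, fell to 65.9 TPM from 165 to 168 (-1.32 ± 0.24, adjusted p = 0.000531). E2F2 fell to 12.7 TPM from 27.4 to 30.2 (-1.11 ± 0.23, adjusted p = 0.00176). E2F2 lost the call within the flow cell (-1.31, adjusted p = 0.125). CDK4, TOP2A and CCNB1, the most abundant members, were not called, with -0.38 ± 0.24 (adjusted p = 0.328), 0.32 ± 0.13 (adjusted p = 0.0875) and -0.07 ± 0.14 (adjusted p = 0.787). Of 11 immediate early genes 3 fell and 0 rose at 10 µM, with a median difference of 0.11 and 5 negative members. Against the methylation compounds their median was -0.68. MYC fell to 22.7 TPM from 62.4 to 69.7 TPM (-1.46 ± 0.25, adjusted p = 0.000339). JUN fell to 170.4 TPM from 376 to 392 and KLF4 to 13.9 from 36.6 to 43.3. Of these MYC kept the call within the flow cell, and JUN (-0.92, adjusted p = 0.0696) and KLF4 (-1.50, adjusted p = 0.0703) did not. Without UNC0638 KLF4 was called (-1.32) and JUN was short of the fold (-0.81). CDK6 and CCND2 were also called within the flow cell (-1.70 and -1.54).

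Histone genes whose transcripts end in a poly(A) tail had the highest median of the 24 lists at 10 µM. Of 7 measured, 5 rose and 0 fell at 10 µM, beside 1.23% and 4.78% of all genes, and the median difference was 1.38. HIST1H2BD, an H2B gene (chr6:26158349-26171576), was at 33.3 and 31.2 TPM in the 0.2% DMSO samples, 29.7 and 30.1 TPM in the 0.1% DMSO samples, 28.7 TPM at 1 µM and 119 TPM at 10 µM. HIST2H2BE, another H2B gene, was at 10.9 and 12.1 TPM in the 0.2% DMSO samples, 12.7 and 9.19 TPM in the 0.1% DMSO samples, 10.3 TPM at 1 µM and 43.2 TPM at 10 µM. HIST1H2AC, an H2A gene, was at 27.0 and 23.0 TPM in the 0.2% DMSO samples, 21.5 and 21.2 TPM in the 0.1% DMSO samples, 19.8 TPM at 1 µM and 77.3 TPM at 10 µM. In these 3 genes the 1 µM value lay below or within the DMSO values and the 10 µM value was the highest of all, with differences of 1.91 ± 0.29 (adjusted p = 6.34e-05), 1.86 ± 0.30 (adjusted p = 0.000133) and 1.70 ± 0.30 (adjusted p = 0.000335). H1F0, the linker histone of differentiated cells, was at 453 and 439.5 TPM in the 0.2% DMSO samples, 438 and 444 TPM in the 0.1% DMSO samples, 641 TPM at 1 µM and 1041 TPM at 10 µM, a difference of 1.23 ± 0.16 (adjusted p = 1.55e-05), and HIST1H2BC rose by 1.21 ± 0.39 (adjusted p = 0.0391). The call of H1F0 was lost within the flow cell by the fold alone (0.98, and 1.02 without UNC0638), and that of HIST1H2BC was lost with a pseudocount of 0.1 (adjusted p = 0.0532). Histone copies are near-identical in sequence, so counting could split reads among them. The libraries were selected for poly(A), so histone transcripts without a tail are not measured well here.

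HEXIM1 inhibits P-TEFb, the kinase that releases paused RNA polymerase, and its transcript is a usual readout of BET bromodomain inhibition. HEXIM1 was at 43.0 and 43.5 TPM in the 0.2% DMSO samples, 40.5 and 41.1 TPM in the 0.1% DMSO samples, 47.8 TPM at 1 µM and 133 TPM at 10 µM, a difference at 10 µM of 1.64 ± 0.39 (adjusted p = 0.00643). Against the methylation compounds it was 1.83 ± 0.44 (adjusted p = 0.0176). It was the sole call among 7 genes of BET proteins and elongation, beside 1.23% of all genes called higher and 4.78% called lower.

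The genes of the targets themselves were not called. CREBBP was at 96.5 and 96.0 TPM in the 0.2% DMSO samples, 99.3 and 96.3 TPM in the 0.1% DMSO samples, 103 TPM at 1 µM and 85.3 TPM at 10 µM, a difference at 10 µM of -0.18 ± 0.40 (adjusted p = 0.814), and EP300 was at 60.2 and 59.0 TPM in the 0.2% DMSO samples, 57.0 and 57.5 TPM in the 0.1% DMSO samples, 57.1 TPM at 1 µM and 57.0 TPM at 10 µM, a difference of -0.03 ± 0.36 (adjusted p = 0.965). The 95% interval of the difference ran from -1.01 to 0.64 for CREBBP and from -0.79 to 0.72 for EP300, so changes inside those bounds are not excluded. None of 13 acetyltransferase genes was called at either dose. Of all genes 4.78% were called lower and 1.23% higher at 10 µM, and 0.0937% and 0% at 1 µM. With so few genes, a count of 0 is near those shares. Among 10 histone deacetylases HDAC5, of class IIa, which holds MEF2 in check, fell to 44.8 TPM from 129 to 145 (-1.58 ± 0.17, adjusted p = 8.54e-07), and was called within the flow cell too (-1.42).

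**Figure D4:**
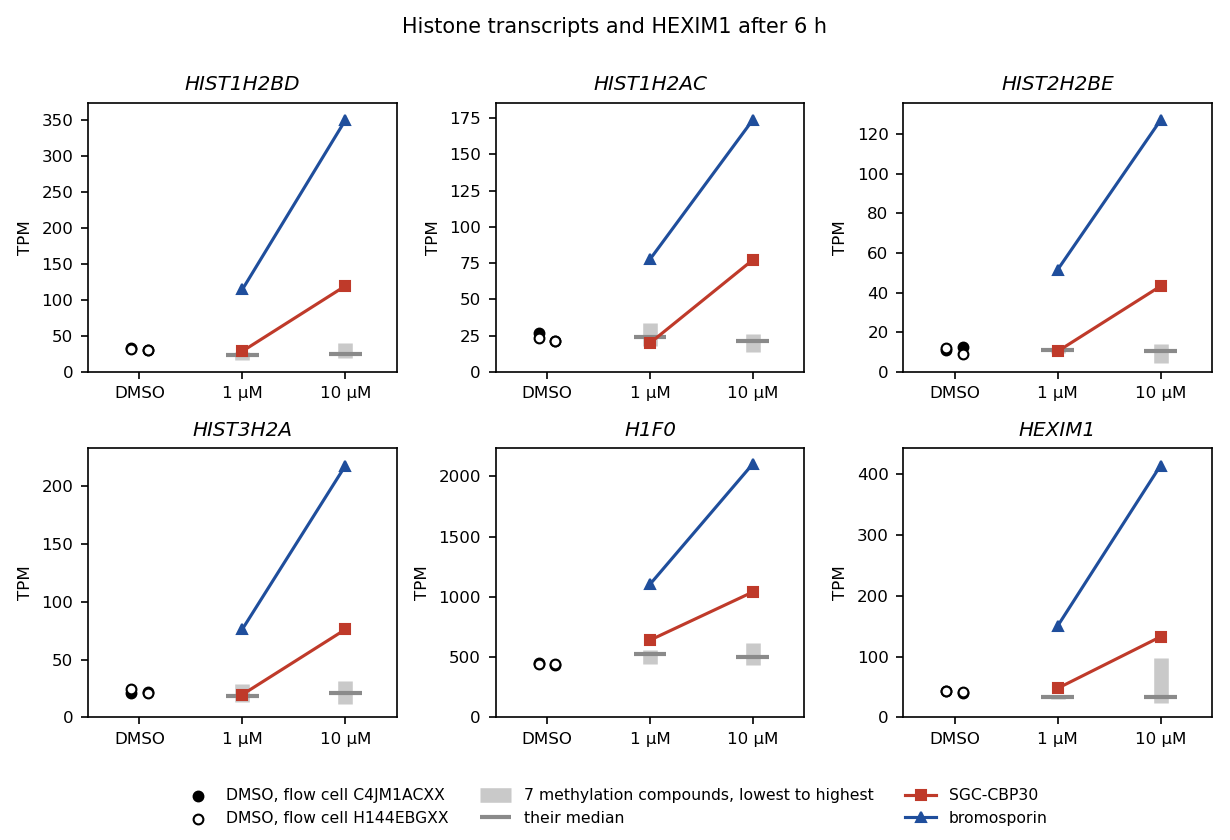
TPM (vertical axes, from 0) of the H2A and H2B genes HIST1H2BD, HIST1H2AC, HIST2H2BE and HIST3H2A, H1F0 and HEXIM1 in DMSO, at 1 µM and at 10 µM, with symbols as in the plot of the CR TFs. The red squares of SGC-CBP30 rise from 1 µM to 10 µM, above the grey range of the methylation compounds, and the blue triangles of bromosporin lie above them at each dose.

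Other signalling lists held scattered calls at 10 µM, beside 4.78% of all genes called lower and 1.23% called higher. NOTCH had 1 of 13, HEYL, a Notch target repressor, which fell to 58.4 TPM from 182 to 208 (-1.72 ± 0.26, adjusted p = 7.65e-05). Of 9 WNT genes 3 fell (DKK1, LGR5 and NOTUM) and BAMBI rose: the secreted WNT antagonist DKK1 went to 1.53 TPM from 9.46 to 13.0 (-2.26 ± 0.42, adjusted p = 0.000701) and BAMBI, a decoy receptor, to 28.8 from 10.1 to 12.4 (1.26 ± 0.35, adjusted p = 0.0168). LGR5 (-1.56, adjusted p = 0.06) and NOTUM (-1.01, adjusted p = 0.18) lost the call within the flow cell, and both were called there without UNC0638 (-1.34 and -1.19). In the interferon and NF-kB list TNFAIP3, the feedback inhibitor A20, fell to 14.9 TPM from 54.9 to 59.5 (-1.86 ± 0.54, adjusted p = 0.0208), and CCL2, a chemokine, was at 2.45 to 3.79 TPM in DMSO and had 0 reads at 10 µM. HEYL, DKK1, BAMBI and TNFAIP3 were called within the flow cell too (-1.63, -2.44, 1.44 and -2.37), and CCL2 was not (adjusted p = 0.157).

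Stress lists held few calls. Of 12 genes of ATF4 and the unfolded protein response TRIB3 fell (-1.50 ± 0.41, adjusted p = 0.0153) and SESN2 rose (1.21 ± 0.35, adjusted p = 0.0217), and both kept the call within the flow cell. Of 9 CREB targets, whose activation classically recruits CREBBP, NR4A2 was called, with 0.555 to 1.29 TPM in DMSO and 2.82 TPM at 10 µM (1.01 ± 0.30, adjusted p = 0.0247), and it was under the fold both with median-ratio scaling (0.95) and within the flow cell (0.65). Of 11 apoptosis genes BCL2L11, which encodes the death protein BIM, was called (1.05 ± 0.32, adjusted p = 0.0267), and it too was not called with that scaling (0.98) or within the flow cell (adjusted p = 0.241). Against DMSO no gene was called among 7 TGF-beta and BMP feedback, 12 hypoxia, 14 cholesterol synthesis, 8 heat shock, 10 xenobiotic response and 14 housekeeping genes, or among 5 measured markers of other cells. Within the flow cell the CREB, apoptosis and xenobiotic lists each had 1 gene called lower and 0 higher. The cholesterol synthesis genes had a median difference of 0.23 from DMSO and -0.78 within the flow cell. HSP90AA1, the most abundant heat shock member after HSPA8, was 1701 to 1820.3 TPM in DMSO and 2775 TPM at 10 µM, and the small heat shock protein gene HSPB1 1006 to 1109 and 667 TPM, differences of 0.65 ± 0.10 (adjusted p = 8.56e-05) and -0.65 ± 0.13 (adjusted p = 0.00162) that passed the adjusted p and not the fold. All these lists were compared with the 4.78% and 1.23% of all genes called lower and higher. List counts within the flow cell stand beside 3.93% and 1.15% of all genes called there.

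**Figure D5:**
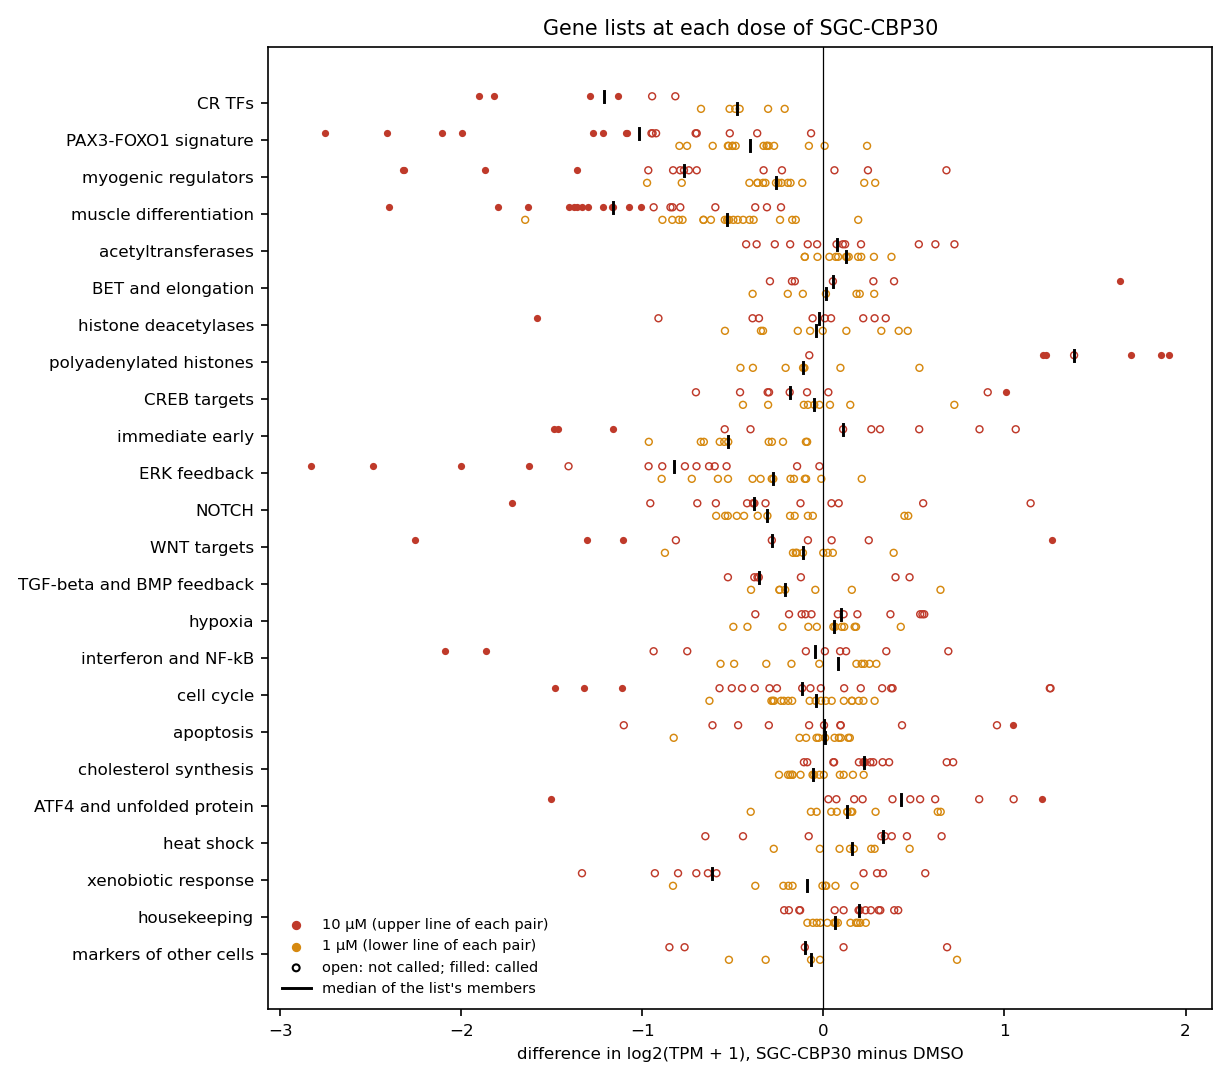
Difference in log2(TPM + 1) from DMSO for each measured member of 24 gene lists, at 10 µM (red, upper line of each pair) and 1 µM (orange, lower line). Filled points are called, open points not, and black ticks are list medians. At 10 µM filled points lie to the left in the muscle and fusion lists and to the right in the histone list, and no point at 1 µM is filled.

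At 1 µM the response was much smaller. By the same test 13 genes fell (0.0937% of those tested) and 0 rose (0%), 1015 had an unadjusted p under 0.05, and voom on whole reads called 22 lower and 1 higher. AQP1, a water channel (chr7:30951415-30965131), was at 123 and 126 TPM in the 0.2% DMSO samples, 128 and 127 TPM in the 0.1% DMSO samples, 38.2 TPM at 1 µM and 20.5 TPM at 10 µM. Both treated values were below all DMSO samples and below the methylation compounds of the same dose, which were at 82.5 TPM or more at 1 µM and 58.0 TPM or more at 10 µM. The difference was -1.70 ± 0.20 (adjusted p = 0.000229) at 1 µM and -2.56 ± 0.20 (adjusted p = 8.19e-08) at 10 µM. RASSF5, a Ras-binding protein, was at 26.7 and 26.7 TPM in the 0.2% DMSO samples, 26.9 and 25.3 TPM in the 0.1% DMSO samples, 10.5 TPM at 1 µM and 8.86 TPM at 10 µM (-1.26 ± 0.23, adjusted p = 0.0188 at 1 µM), and KRT80, a keratin, was at 19.7 and 19.3 TPM in the 0.2% DMSO samples, 24.8 and 25.5 TPM in the 0.1% DMSO samples, 6.67 TPM at 1 µM and 2.67 TPM at 10 µM (-1.59 ± 0.30, adjusted p = 0.0188 at 1 µM). DYSF (membrane repair), SCN4A (the sodium channel of skeletal muscle) and SRPK3 (a kinase of striated muscle), singled out after their values were seen, also fell at 1 µM, with differences of -1.18, -1.24 and -1.05.

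Of the other genes that the rule named at 1 µM, 3 had few reads or DMSO samples far apart. GNG10, a G-protein subunit, was at 2.79 and 11.4 TPM in the 0.2% DMSO samples, 3.25 and 12.4 TPM in the 0.1% DMSO samples, 1.3 TPM at 1 µM and 1.52 TPM at 10 µM, and ATP5E, a subunit of ATP synthase, was at 200.4 and 538 TPM in the 0.2% DMSO samples, 204 and 544 TPM in the 0.1% DMSO samples, 109 TPM at 1 µM and 114 TPM at 10 µM. In both the DMSO samples split by flow cell, with C4JM1ACXX low and H144EBGXX high. The methylation compounds at 1 µM, at 1.16 to 2.31 and 74.8 to 121 TPM, included the treated values at 1 µM. At 10 µM GNG10 lay within their 0.869 to 2.40 TPM and ATP5E above their 46.7 to 102 TPM. Against DMSO both genes also count among the falls at 10 µM (-1.51 for GNG10 and -1.52 for ATP5E). Within the flow cell the difference at 1 µM was -0.22 for GNG10 and 0.26 for ATP5E, the opposite sign. GENCODE places the read-through gene DNAJC25-GNG10 over GNG10, and how counting divided their reads is not known. SNORD12B, a small nucleolar RNA, had 0 reads at 1 µM, 4 at 10 µM and at least 8 in each DMSO library. AQP1 (-1.41, adjusted p = 0.847), RASSF5 (-1.18, adjusted p = 0.616) and KRT80 (-1.94, adjusted p = 1) were lower within the flow cell at 1 µM as well, without being called. Against the methylation compounds at 1 µM 0 genes were called lower (0%) and 1 higher (0.00721%), SNORA79 with 1 read, while 540 had an unadjusted p under 0.05. That count became 7 lower and 2 higher without UNC0638.

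The step from 1 µM to 10 µM could be tested directly, as both libraries shared the flow cell. The controls with 0.2% and 0.1% DMSO differed from each other by 3.55 times counting noise. If the 2 doses carried unlike DMSO concentrations, dose and solvent cannot be told apart in this step. Between them 98 genes were lower at 10 µM (0.707%) and 20 were higher (0.144%). VGLL2, a cofactor of TEAD factors in muscle (chr6:117586721-117594728), was at 103 and 96.0 TPM in the 0.2% DMSO samples, 105 and 105 TPM in the 0.1% DMSO samples, 94.0 TPM at 1 µM and 30.3 TPM at 10 µM, and the 10 µM minus 1 µM difference was -1.60 ± 0.20 (adjusted p = 0.000376). CPA5, a carboxypeptidase, was at 374 and 356 TPM in the 0.2% DMSO samples, 385 and 370.4 TPM in the 0.1% DMSO samples, 285 TPM at 1 µM and 118 TPM at 10 µM, with a step of -1.26 ± 0.16 (adjusted p = 0.000376). SEMA3D, a secreted guidance factor, and AMPD3, an AMP deaminase, had steps of -2.26 ± 0.30 (adjusted p = 0.000376) and -1.89 ± 0.24 (adjusted p = 0.000376). VGLL2 at 1 µM lay just under its DMSO values, while the other 3 were already lower there.

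The genes that rose over the dose step with the smallest p were HIST1H2BD (2.02 ± 0.33, adjusted p = 0.00194), HIST2H2BE (1.97 ± 0.34, adjusted p = 0.00368), HIST1H2AC (1.91 ± 0.34, adjusted p = 0.00477) and HIST3H2A (1.89 ± 0.37, adjusted p = 0.0104). HIST3H2A was at 21.5 and 24.8 TPM in the 0.2% DMSO samples, 22.1 and 20.8 TPM in the 0.1% DMSO samples, 19.8 TPM at 1 µM and 76.1 TPM at 10 µM. Of the CR TFs none was called over the step, and MYOG (-1.60 ± 0.43, adjusted p = 0.0667) and MYCN (-1.38 ± 0.36, adjusted p = 0.0626) came nearest. FGF8 (-2.96 ± 0.56, adjusted p = 0.00762), SSTR5 (-2.87 ± 0.55, adjusted p = 0.00813) and SEZ6 (-2.73 ± 0.37, adjusted p = 0.000425) were called. Because both doses were also compared with the same DMSO samples, their values are given side by side above and were not correlated.

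Bromosporin, which binds bromodomains broadly and not those of CREBBP and EP300 alone, was measured at the same doses, time and flow cell. In the direct comparison at 10 µM 2008 genes were higher in SGC-CBP30 (14.5%) and 393 lower (2.83%). Median-ratio scaling changed that split to 1187 higher and 930 lower. At 1 µM 154 were higher (1.11%) and 30 lower (0.216%). The 2 compounds were tested as this 1 pair at 2 doses, with p-values adjusted over all genes and not over the 2 doses.

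The genes lower in SGC-CBP30 with the smallest p at 10 µM included MAN1C1, a Golgi mannosidase, at 23.0 TPM against 80.0 TPM in bromosporin and 50.7 to 52.1 in DMSO (-1.76 ± 0.18, adjusted p = 1.09e-07). DGAT1, which makes triglyceride, was at 39.3 TPM against 149 (-1.89 ± 0.22, adjusted p = 9.58e-07). CKB, brain creatine kinase, was at 302 against 790.2 (-1.38 ± 0.18, adjusted p = 2.61e-06) and UNC5B, a netrin receptor, at 12.3 against 39.9 (-1.62 ± 0.20, adjusted p = 1.58e-06). MAN1C1 thus lay on opposite sides of its DMSO values under the 2 compounds.

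The 4 named genes higher in SGC-CBP30 at 10 µM were near their DMSO levels under SGC-CBP30. MRPL27, of the mitochondrial ribosome, was at 133 TPM or more in DMSO, 125 TPM under SGC-CBP30 and 12.4 TPM under bromosporin (3.24 ± 0.19, adjusted p = 4.37e-11). SMARCAD1, a chromatin remodeller, was at 53.7 to 58.3, 61.2 and 7.98 TPM (2.79 ± 0.16, adjusted p = 4.37e-11), and LZIC and C9orf64 differed by 2.26 and 2.21. CREBBP itself was at 17.6 TPM under 10 µM bromosporin, 2.22 ± 0.46 (adjusted p = 0.000652) higher under SGC-CBP30. Of the 13 acetyltransferase genes 6 were called higher in SGC-CBP30 than in bromosporin, beside 14.5% of all genes, a share that rests on the scaling as above.

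At 1 µM the differences with the smallest p again held histone genes. HIST2H2BE was at 10.3 TPM under SGC-CBP30 and 51.4 TPM under bromosporin (-2.21 ± 0.34, adjusted p = 0.00153), and HIST1H2BD at 28.7 and 115 TPM (-1.96 ± 0.33, adjusted p = 0.00259). DGAT1 (-1.43 ± 0.22, adjusted p = 0.00167) and NMT2, a myristoyltransferase (-1.19 ± 0.19, adjusted p = 0.0021), were lower as well. The anti-apoptotic BCL2L1 was at 19.2 TPM against 6.13 TPM (1.50 ± 0.20, adjusted p = 0.00049), and UBXN8 (2.04 ± 0.22, adjusted p = 5.88e-05), CPPED1 (1.38 ± 0.18, adjusted p = 0.00036) and the tRNA-modifying enzyme ALKBH8 (1.42 ± 0.19, adjusted p = 0.00049) were higher in SGC-CBP30 too.

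For the CR TFs the 2 compounds were not told apart by the test at either dose. The 10 µM difference, SGC-CBP30 minus bromosporin, was 0.99 ± 0.43 (adjusted p = 0.0776) for MYOG, with a 95% interval of 0.11 to 1.88 before adjustment. For MYOD1 it was 0.41 ± 0.43 (adjusted p = 0.5), with an interval of -0.48 to 1.3, and for SOX8 -0.40 ± 0.20 (adjusted p = 0.12), with an interval of -0.81 to 0.0039. The intervals were -0.59 to 0.90 for MYCN, -1.26 to 1.46 for FOXF1 and -1.01 to 0.73 for PAX3. At 1 µM they lay widest for FOXF1, from -2.28 to 0.45, and closest for SOX8, from -0.40 to 0.41. Apart from that of MYOG at 10 µM, these intervals leave room for differences in either direction, and the compounds are not shown to act alike on these genes. HEXIM1 at 10 µM was 133 TPM under SGC-CBP30 and 414 TPM under bromosporin, a called difference of -1.64 ± 0.45 (adjusted p = 0.0075). With unlike doses, 10 µM SGC-CBP30 and 1 µM bromosporin had 133 and 150.2 TPM of HEXIM1, 119 and 115 TPM of HIST1H2BD and 163 and 307 TPM of MYOG.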

How the data were processed

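RNA of FP-RMS cells was extracted, selected for poly(A) and sequenced as paired ends. Per the methods of the study, the authors aligned reads with STAR to hg19 and quantified genes with RSEM against a UCSC reference, and deposited 1 table of TPM per sample, each summing to the same total over 27043 genes. TPM removes depth, but whole reads could be recovered from its steps, which gave 5737938 to 41415068 reads across the screen. For 23037 of 23037 genes above 0 in the screen all values came out whole within 1e-06, taken relative to counts above 1.

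Genes at 1 TPM or more in 2 of the 6 samples (13869) were tested with limma 3.58.1 in R 4.3.3 on log2(TPM + 1), which understates changes of low genes. The fit held 42 samples with 19 residual degrees of freedom, the DMSO replicates of a concentration being averaged, SGC-CBP30 and bromosporin given a term per dose, and the other 18 compounds taken with both doses as replicates. The reference within the flow cell was a fit of 16 samples with 12 residual degrees of freedom. P-values were Benjamini-Hochberg adjusted over all 13869 genes, with calls at 0.05 and a difference of at least 1. Errors are standard errors. Alternatives covered the pseudocount (0.1), scaling, filters, DMSO choices and limma's voom on recovered reads, and a reference without UNC0638 was added after seeing the data.

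Named genes were the 12 largest called falls and rises at 10 µM with a mean of at least 5 TPM and the same sign at 1 µM, the 6 largest called at 1 µM, and the 4 with the smallest p each way in the other comparisons, beside the CR TFs, the targets and list members. The members and lists were chosen with earlier results of these data known. Promoter letters came from RefSeq.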

Additional observations from a re-analysis of the deposited data

Results flagged for a closer look

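The 4 DMSO samples, and the 7 methylation compounds at each dose, were checked for a value far from the others. This was done for the 6 CR TFs and both target genes. Of 24 checks 5 found one, where chance gives about 1 in 20 for a single check. The checks share samples and are not independent. CREBBP was 99.3 TPM in 0.1% DMSO replicate 1, above the 96.0 to 96.5 TPM of the other DMSO samples. The other 4 values were all from UNC0638. At 10 µM of UNC0638 CREBBP was 239 TPM, against 73.7 to 103 TPM in the other 6 methylation compounds, and EP300 was 102 TPM, against 51.0 to 69.2 TPM. At 1 µM PAX3 was 19.3 TPM, against 35.3 to 40.6 TPM, and EP300 was 36.5 TPM, against 51.0 to 59.5 TPM. For that reason the counts within the flow cell are also given without UNC0638.

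The change under SGC-CBP30 differed between 10 µM and 1 µM for 118 genes by a direct test of the dose step, 98 lower and 20 higher at 10 µM, with 1 library at each dose.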

How the results depend on the processing

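At 10 µM the 833 calls against DMSO became 263 with both doses as replicates, 553 with 0.2% DMSO alone and 2003 without a fold threshold, and ran from 829 to 848 with 1 DMSO library left out. At 1 µM the 13 calls became 22 with the 4 DMSO samples taken singly, 21 without a filter on low values, 2 with 0.1% DMSO alone, 3 with 0.2% DMSO alone, 24 with the DMSO of H144EBGXX alone, 117 in a fit of the 6 samples only, 23 with voom and 31 without a fold threshold, and ran from 11 to 18 with 1 DMSO library left out. The dose step went from 118 to 197 with a pseudocount of 0.1. Without a fold threshold the comparison with bromosporin went from 2401 to 4675 at 10 µM and from 184 to 311 at 1 µM, and that with the methylation compounds at 10 µM from 705 to 1142. The single call against those compounds at 1 µM became 7 with a filter over the 44 screen samples, 12 with none, 2 with a pseudocount of 0.1, 9 without UNC0638, and 0 with a mean of 5 TPM or more, with median-ratio scaling or with voom. The causes were not tested.

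Of the 6 CR TFs 4 were called at 10 µM against DMSO and 2 within the flow cell, with or without UNC0638. At 1 µM the sign turned within the flow cell for MYOD1 (0.088, and 0.049 without UNC0638) and ATP5E (0.26, and 0.33 without UNC0638). Of the values of the CR TFs under the alternatives 208 kept direction and side of the threshold and 6 lost the call. Genes not called in the main fit, such as all 6 CR TFs at 1 µM, could not lose a call. They count among the 208 where the sign held. Of the named genes 105 kept both and 13 lost the call, and of the called list members 182 kept both and 30 lost the call. Median-ratio scaling lowered differences from DMSO by 0.071 at 10 µM and 0.040 at 1 µM. No paired analysis was possible because the compound samples carry no replicate number and each dose is 1 library. Depth limits genes that ended at a few reads, such as LMF1-AS1.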

Other observations

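LMF1-AS1, SOX8 and SSTR5, which all fell at 10 µM, lie close together on chromosome 16. The stretch from LMF1-AS1 to SSTR5, with 100000 bases added on each side, was examined after their values were seen. Between chr16:871033-1231454 (hg19) 6 genes were measured, of which 4 were lower and 0 higher by the limma test at 10 µM. Of all genes 4.78% were lower and 1.23% higher. The window was drawn to hold LMF1-AS1, SOX8 and SSTR5, so their part in this count was fixed beforehand. SOX8 was not called within the flow cell. From LMF1-AS1 to SSTR5 the 4 genes called lower span 160422 bases, with 85776 bases between the end of SOX8 and the start of SSTR5. SSTR5-AS1 went from 7.63 to 8.26 TPM in DMSO to 4.74 TPM at 1 µM and 0.867 TPM at 10 µM, a difference at 10 µM of -2.25 ± 0.21 (adjusted p = 2.17e-07). LMF1, which overlaps LMF1-AS1, was not called (-0.72 ± 0.28, adjusted p = 0.0879), and CACNA1H, past SSTR5, was at 12.2 to 13.5 TPM in DMSO and 12.2 TPM at 10 µM (-0.06 ± 0.25, adjusted p = 0.9). SSTR5 and SSTR5-AS1 overlap, as do LMF1 and LMF1-AS1, and without known strand use their reads cannot be told apart.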
